A study of Gallus gallus with 8 samples.

Results

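The genes described here encode the subunits and assembly factors of the mitochondrial respiratory chain and ATP synthase, and the proteins of the mitochondrial ribosome. They were taken by name, as every gene whose symbol in the deposited tables starts with NDUF, SDH, UQCR, COX and a digit, ATP5, MRPL or MRPS. The names matched 165 probe sets of 111 genes, and 109 of these genes had a probe set that passed the filter on low signal, among 8558 genes with a tested probe set in all. For each gene, the tested probe set of highest mean signal over the arrays is given. The naming rule itself uses no measured difference between the tissues.

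The samples were chick (Gallus gallus) inner ear sensory epithelia at embryonic day 20 to 21, with 4 Affymetrix arrays of the utricle, a balance organ, and 4 of the cochlea, the hearing organ, which is the basilar papilla in birds. Eggs were kept at 38 °C, no treatment or genotype was given for any group, and each sample was RNA from 10 to 20 pooled epithelia dissected to leave hair cells and supporting cells. The labels number the arrays of each tissue as biological replicates, without saying whether the pools shared embryos or a day of dissection, so p-values measure the spread between these pools. The notes deposited with the values tie them to a mass spectrometry study of the energy pathways of the hearing and balance epithelia.

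The respiratory chain passes electrons from NADH and succinate to oxygen through complexes I to IV of the inner mitochondrial membrane and pumps protons as it does so. Complex V, the ATP synthase, uses the proton gradient to make ATP. A few hydrophobic subunits of complexes I, III, IV and V are encoded by mitochondrial DNA and made by the mitoribosome, whose proteins are all encoded in the nucleus, as are all genes described here. Hair cells depend on this ATP for ion pumping, calcium clearance and synaptic transmission.

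Signals were log2 GCRMA values, and a probe set was tested where its signal was above 4 on at least 4 of the 8 arrays. Between 40.98% and 41.77% of probe sets on an array were above 4. Across the tested probe sets, which are not independent, arrays correlated at 0.9776 to 0.9873 within the utricle, at 0.983 to 0.9913 within the cochlea and at 0.8573 to 0.8843 between the tissues. Of the listed hair cell markers, 14 of 23 were tested, among them oncomodulin, OCM, at a mean log2 signal of 15.60 in both tissues. ATOH1, POU4F3, TMC1 and TMC2 had no tested probe set. Of the listed supporting cell markers, 10 of 14 were tested, with TECTB, a tectorial membrane protein, at 14.82 ± 0.07 in the utricle and 15.30 ± 0.08 in the cochlea (SD, n = 4 arrays per tissue).

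Some other markers and RNA measures moved with the tissue. The neurofilament NEFM had a mean log2 signal of 2.59 ± 0.19 in the utricle and 12.83 ± 0.04 in the cochlea (SD, n = 4), and the muscle markers tested, ACTA1 and TNNC1, 2 of 13 listed, were both called higher in the cochlea. Their summed linear signal ran from 392 to 538 in the utricle and from 1880 to 2300 in the cochlea, while ACTC1, CKM, DES and MYOD1 had no tested probe set. Summed over the 5 neuronal and glial markers tested of 12, the linear signal was 930 to 5630 in the utricle and 8730 to 9660 in the cochlea. The signal of the beta-actin control at its 3′ end exceeded that at its 5′ end by 2.85 to 3.36 on the log2 scale in the utricle and by 2.00 to 2.54 in the cochlea, with no overlap. The GAPDH control showed 0.28 to 0.47 and -0.04 to 0.12, while the EF1A control overlapped, at 1.07 to 1.5 and 1.05 to 1.41. Summed linear signal of the hair cell markers was 83600 to 95000 in the utricle and 116000 to 122000 in the cochlea. Of the 14, limma called 4 higher in utricle arrays and 7 in cochlea arrays (78.6% called, against 53.2% of all genes). The widest differences among the 14 went opposite ways. CALB1 had a mean log2 signal of 15.37 on cochlea arrays against 4.84 on utricle arrays, and CALB2 had 8.77 against 14.7. The utricle arrays of CALB1 lay far apart, at 2.49, 7.47, 6.89 and 2.5 (SD 2.7), so the size of its difference is uncertain. A linear sum weighs bright genes most, so the gap between these sums does not measure the amount of hair cells. For the supporting cell markers, the sum was 112000 to 120000 in the utricle and 126000 to 149000 in the cochlea. Of the 10, 4 were called higher in cochlea arrays, LRP2, TIMP3, TECTA and TECTB (differences of -5.97, -5.82, -1.87 and -0.48). LFNG, SOX2 and SLC1A3 were called higher in utricle arrays (2.18, 1.30 and 0.81). The share of the 10 called was 70.0%, against 53.2% of all genes. For the 2 leukocyte markers tested of 10, the sum was 1680 to 1810 and 989 to 1270. The sums of the 4 ion-transporting epithelium markers tested of 12, the 2 of endothelium of 10 and the 5 of fibroblasts and cartilage of 13 overlapped between the tissues. Single markers among them still differed, with ACAN at 3.81, SLC26A4 at 2.53 and PECAM1 at 0.42 called higher in utricle arrays, and CLDN5 at -3.36 and COL2A1 at -0.88 in cochlea arrays. In the lower tissue, mean signals were 2.59 for NEFM, 2.62 for ACAN, 2.46 for SLC26A4 and 3.92 for CLDN5, under the filter's level. These genes passed the filter only through the other tissue, so their calls lean on the filter and the sizes are uncertain. The part of these measures in the differences below was not tested. Globin signal varied within both tissues, with HBBA from 8.91 to 13.48 in the utricle and from 8.83 to 14.00 in the cochlea, lowest on the arrays numbered 1 in each, and 0 of the 3 erythrocyte markers tested was called by limma, also without adjustment of p.

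Of the 109 genes, 9 were called higher in utricle arrays and 25 in cochlea arrays at an adjusted p under 0.05, and 75 were not called. The largest differences were those of UQCRB, NDUFB4, MRPS28 and MRPL36, higher in the cochlea, and of MRPS5, COX6C and MRPS27, higher in the utricle. The called share was 31.2%, against 53.2% of all genes and 51.5% of all tested probe sets. By direction, the share was 8.26% for the utricle and 22.9% for the cochlea, against 26.5% and 26.7% of all genes. With each array set to an equal median, the counts were 5 for the utricle and 32 for the cochlea, and the utricle's share of the calls was 13.5% in place of 26.5%. The utricle count was also 5 without utricle array 3, without cochlea array 2, and within the 6 arrays that share an array name prefix. Within those 6 arrays the cochlea count was 24, and the calls of ATP5S, COX15, COX5A, COX6A1, MRPL14 and NDUFA4 were lost, with adjusted p from 0.0542 to 0.104. The share of all tested probe sets called within those 6 arrays was 43.8%. MAS 5.0 called 108 of the 109 genes present on all 8 arrays, with MRPL33 the exception, against 7667 of all 8558 genes. With the replicate number as a block, the counts were 10 and 33. That fit called 58.2% of all tested probe sets, in place of 51.5%. In an epithelium of several cell types, fewer cells of a type and less RNA per cell cannot be told apart.

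Most differences were small. The median difference, utricle minus cochlea on the log2 scale, was -0.14 over these genes and 0.00 over all genes, with 74 negative and 35 positive differences. The median size of a difference without its sign was 0.21, against 0.40 over all genes, and the range was from -1.23 to 1.12. A called difference of at least 1.5-fold was found for 8 genes, 7.34%, against 35.4% of all genes. At least a 2-fold difference was found for UQCRB and MRPS5 alone, 1.83%, against 21.1%. Of the 75 genes not called, 65 had a 95% confidence interval that lay within 1.5-fold in either direction, so that a larger difference lies outside the interval for these. The signals of the tissues did not overlap for 42 genes, 38.5%, against 50.9% of all genes. These were 33 of the 34 called genes, the exception being COX15, and 9 that were not called.

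**Figure D1:**
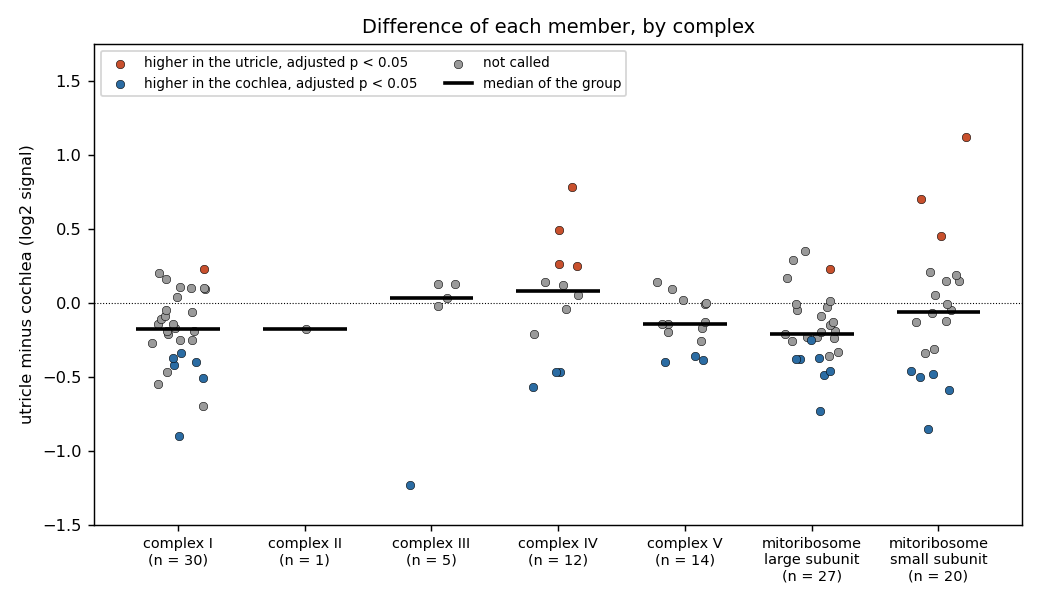
Difference of each of the 109 genes, utricle minus cochlea in log2 signal on the vertical axis, grouped by complex; each point is a gene, coloured by its call at an adjusted p under 0.05, and black bars are group medians. Most points lie between -0.5 and 0.5, with UQCRB at -1.23 and MRPS5 at 1.12 as the extremes.

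The shift was also read array by array. The median over the 109 genes of an array's deviation from each gene's mean was -0.03, -0.13, 0.03 and -0.11 on utricle arrays 1 to 4, and 0.05, 0.02, 0.07 and 0.08 on the cochlea arrays. Utricle array 3 lay above cochlea array 2, so the tissues overlap in this median. Over all genes the same median stayed between -0.04 and 0.01 on every array.

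Complex I, the NADH dehydrogenase through which most electrons enter the chain, had 30 tested genes. Of these, 1 was called higher in utricle arrays, 6 in cochlea arrays and 23 in neither, with a median difference of -0.18. The share called was 23.3%, against 53.2% of all genes. NDUFB4, an accessory subunit of its membrane arm, had log2 signals of 11.47, 11.27, 11.52 and 11.35 in the utricle and 12.32, 12.21, 12.28 and 12.40 in the cochlea. All cochlea arrays lay above all utricle arrays. The difference was -0.90 (95% confidence interval -1.1 to -0.70), or 1.87-fold higher in the cochlea, with an adjusted p of 4.37e-05. A further probe set of NDUFB4 differed by -0.98 (adjusted p 0.000255). The other 11 accessory subunits of the membrane arm tested were not called, and their differences with that of NDUFB4 had a median of -0.12.

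Genes of the matrix arm, which holds the flavin and the iron-sulfur clusters, numbered 14. Of these, limma called 4 higher in cochlea arrays and 0 in utricle arrays, where an unadjusted p under 0.05 gave 0 too. The share called was 28.6%, against 53.2% of all genes. NDUFA2, an accessory subunit of that arm, had log2 signals of 11.09, 11.09, 11.12 and 10.99 in the utricle and 11.57, 11.54, 11.67 and 11.58 in the cochlea, without overlap. It was 1.43-fold higher in the cochlea (difference -0.51, interval -0.69 to -0.34, adjusted p 0.000482). NDUFA5, another accessory subunit there, had signals of 10.76, 10.54, 10.89 and 10.79 in the utricle and 11.25, 11.16, 11.23 and 11.02 in the cochlea. Its cochlea arrays all lay above its utricle arrays, by 1.34-fold on average (adjusted p 0.00779). NDUFA6, also accessory, was 1.32-fold higher in the cochlea, at an adjusted p of 0.00383, and NDUFAB1, the mitochondrial acyl carrier protein found in both arms, 1.30-fold (adjusted p 0.00314).

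Of the core subunits, which carry out the electron transfer, NDUFV2 was 1.27-fold higher in the cochlea (difference -0.34, adjusted p 0.0239). The call of NDUFV2 was lost without utricle array 2 or 4 or cochlea array 3 or 4 (adjusted p up to 0.0616) and with no filter on low signal (0.0523). NDUFV1, which binds NADH, differed by -0.11 (interval -0.30 to 0.09), NDUFS1 by 0.09 (-0.12 to 0.31) and NDUFS8 by 0.10 (-0.09 to 0.29), and none of these was called. NDUFS3, another core subunit, had signals of 9.82, 9.98, 9.76 and 7.48 in the utricle and 10.17, 10.37, 9.72 and 9.59 in the cochlea. Utricle array 4 stood apart from the other 7, the difference of -0.70 had an interval from -1.91 to 0.51 (adjusted p 0.298), and it was -0.11 without that array. NDUFS4, an accessory subunit of the matrix arm, differed by -0.47 (adjusted p 0.0635), and with the replicate number as a block its adjusted p was 0.00965. Without utricle array 1, NDUFS4 differed by -0.58 (adjusted p 0.035). Of the 22 fits, alternatives included, 5 called NDUFS4, with differences from -0.58 to -0.28 and adjusted p up to 0.519. A second and dimmer probe set of NDUFS4 differed by -0.09 (interval -1.26 to 1.09, adjusted p 0.901).

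NDUFA4 was first described as part of complex I and later assigned to complex IV. Its signals were 14.29, 14.20, 14.34 and 14.26 in the utricle and 14.06, 14.01, 13.99 and 14.12 in the cochlea, without overlap. The difference was 0.23, or 1.17-fold higher in the utricle (adjusted p 0.0322). The call was lost when any array other than utricle array 2 or cochlea array 4 was left out (adjusted p up to 0.0807) and under both other scalings of the arrays (adjusted p 0.0636 and 0.0884). The assembly factor listed as NDUFA12L differed by -0.55 (adjusted p 0.0832). Its adjusted p was 0.0119 with the replicate number as a block and 0.0488 without utricle array 1, and 3 of the 22 fits called it. NDUFA10, which passed the threshold only on a second and dimmer probe set (-0.76, adjusted p 0.000817), differed by -0.25 on the brighter (adjusted p 0.094, and 0.0241 with the replicate number as a block). Without cochlea array 4, the brighter probe set of NDUFA10 differed by -0.32 (adjusted p 0.0404). NDUFA10 was called in 3 of the 22 fits.

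Complex II oxidises succinate and joins the chain to the tricarboxylic acid cycle. SDHB, its iron-sulfur subunit, was the only gene of the complex matched by name. Its signals were 12.09, 12.06, 12.27 and 12.01 in the utricle and 12.25, 12.14, 12.31 and 12.43 in the cochlea. The tissues overlapped, and the difference of -0.18 (interval -0.40 to 0.04) was not called (adjusted p 0.16).

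Complex III passes electrons from ubiquinol to cytochrome c, and 1 of its 5 tested genes was called (20.0%, against 53.2% of all genes). UQCRB, a small subunit that lies near the quinone-binding site, had signals of 7.97, 7.92, 8.15 and 8.12 in the utricle and 9.21, 9.27, 9.40 and 9.17 in the cochlea. More than 1 log2 unit separated the highest utricle array from the lowest cochlea array. UQCRB was 2.34-fold higher in the cochlea (difference -1.23, interval -1.44 to -1.02, adjusted p 8.92e-06), the largest difference of the 109 genes. It was read by 1 probe set, of a kind that can also match other transcripts.

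The other subunits of complex III were not called. The core subunits differed by 0.13 for UQCRC1 (interval -0.05 to 0.31) and 0.03 for UQCRC2 (-0.20 to 0.26). UQCRFS1, the Rieske iron-sulfur protein, differed by -0.02 (-0.26 to 0.22), and UQCRQ, a small subunit, by 0.13 (-0.04 to 0.30). For each of these the interval excludes a difference of the size seen for UQCRB, and the signs of UQCRC1, UQCRC2 and UQCRFS1 turned under some alternatives.

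**Figure D2:**
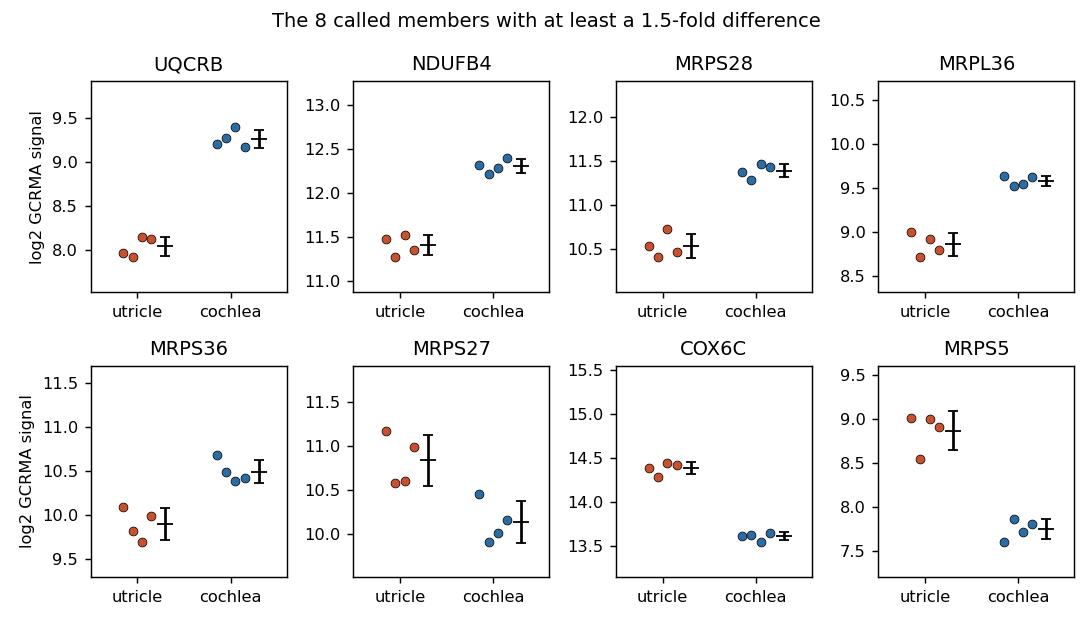
Log2 GCRMA signal on every array for the 8 genes with a called difference of at least 1.5-fold, in the order of their difference; points are arrays 1 to 4 from left to right, and the bar beside them is the mean with the SD (n = 4). Each panel spans the same number of log2 units, and in all 8 the utricle and cochlea arrays do not overlap.

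Complex IV, cytochrome c oxidase, passes the electrons to oxygen. Of its 12 tested genes 4 were called higher in utricle arrays and 3 in cochlea arrays. The share called was 58.3%, near the 53.2% of all genes. Of the 6 structural subunits, limma called 3 higher in utricle arrays and 0 in cochlea arrays, with a median difference of 0.18. The share called among these 6 was also near the 53.2% of all genes. An unadjusted p under 0.05 gave 0 in cochlea arrays too, but only 1 of the 6 differences was negative. Whether these subunits share a direction beyond that of all genes was not tested. COX6C, a small transmembrane subunit, had signals of 14.39, 14.29, 14.45 and 14.42 in the utricle and 13.62, 13.63, 13.55 and 13.65 in the cochlea. The arrays of a tissue lay within 0.2 log2 units of each other, and the tissues did not overlap. COX6C was 1.71-fold higher in the utricle (difference 0.78, interval 0.60 to 0.95, adjusted p 4.11e-05).

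COX5A, which binds thyroid hormone and faces the matrix, had signals of 11.80, 11.82, 11.91 and 11.76 in the utricle and 11.48, 11.61, 11.63 and 11.53 in the cochlea. All utricle arrays lay above all cochlea arrays, by 1.20-fold on average (adjusted p 0.0218). COX6A1, the isoform of subunit VIa found outside heart and skeletal muscle, was 1.19-fold higher in the utricle (difference 0.25, adjusted p 0.02). The call of COX5A was lost without utricle array 3 (adjusted p 0.0557) or cochlea array 1 (0.0572), and that of COX6A1 without cochlea array 2 (0.0501). The mean over the probe sets of COX6A1 differed by 0.10 (adjusted p 0.428). With each array set to an equal median the adjusted p was 0.0502 for COX5A and 0.0615 for COX6A1. COX4I1, the largest of the nuclear-encoded subunits, differed by 0.12 (interval -0.08 to 0.31), and its adjusted p was 0.292.

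The assembly factors of complex IV went in both directions. COX19, a copper-handling factor of the intermembrane space, had signals of 11.05, 10.95, 11.21 and 11.04 in the utricle and 11.65, 11.68, 11.62 and 11.59 in the cochlea. The tissues did not overlap, and COX19 was 1.49-fold higher in the cochlea (difference -0.57, adjusted p 0.00045), with a second probe set at -0.85 (adjusted p 0.00071). COX11, which delivers copper to the catalytic core, had 8.84, 8.76, 8.69 and 8.53 in the utricle and 9.43, 9.03, 9.20 and 9.03 in the cochlea. It was 1.38-fold higher there (adjusted p 0.00986). COX15, needed to make heme A, had 8.09, 7.49, 8.0 and 8.02 in the utricle and 7.47, 7.22, 7.32 and 7.63 in the cochlea. Utricle array 2 was low among its tissue and overlapped the cochlea. COX15 was 1.41-fold higher in the utricle (difference 0.49, adjusted p 0.0258), a call lost without utricle array 1, 3 or 4 or cochlea array 2 or 3 (adjusted p up to 0.0673) and with no filter on low signal (0.0929).

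COX7A2L, which takes part in joining complexes III and IV into supercomplexes, had signals of 12.20, 12.05, 12.13 and 11.96 in the utricle and 12.59, 12.63, 12.67 and 12.36 in the cochlea. No array crossed between the tissues, and it was 1.39-fold higher in the cochlea, at an adjusted p of 0.00365. COX18, which inserts a mitochondrially encoded subunit into the membrane, differed by 0.14 (interval -0.03 to 0.31, adjusted p 0.147). COX4NB matched by its name only, since it encodes a subunit of a complex of the endoplasmic reticulum. It differed by -0.21 (adjusted p 0.17), and by -0.30 without utricle array 3 (adjusted p 0.0475).

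Complex V had 14 tested genes, with a median difference of -0.14. Of these, limma called 3 higher in cochlea arrays and 0 in utricle arrays, where an unadjusted p under 0.05 gave 0 too. The share called was 21.4%, against 53.2% of all genes. ATP5C1, the gamma subunit that turns inside the catalytic head, had signals of 13.08, 12.98, 13.11 and 12.79 in the utricle and 13.52, 13.30, 13.32 and 13.36 in the cochlea. The tissues did not overlap, and it was 1.31-fold higher in the cochlea (difference -0.39, interval -0.62 to -0.16, adjusted p 0.0111). ATP5O, which links the head to the outer stalk, had 13.22, 13.20, 13.42 and 13.26 in the utricle and 13.57, 13.64, 13.68 and 13.66 in the cochlea. Its 1.28-fold difference (adjusted p 0.00566) was matched by further bright probe sets at -0.38 and -0.43, while dim ones at -0.05 and 0.04 were not called. The mean over all its probe sets differed by -0.24 (adjusted p 0.0766).

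ATP5S, coupling factor B, had 9.59, 9.42, 9.94 and 9.82 in the utricle and 10.09, 10.00, 10.09 and 10.20 in the cochlea. Its tissues did not overlap, and it was 1.32-fold higher in the cochlea, at an adjusted p of 0.0233. The call was lost without utricle array 1 or cochlea array 3 or 4 (adjusted p up to 0.0597) and with no filter on low signal (0.0682). The subunits of the catalytic sites were not called, with ATP5B, the beta subunit, at -0.14 (interval -0.34 to 0.06) and ATP5A1, the alpha subunit, at 0.14 (-0.26 to 0.54). ATP5A1 has a copy on each sex chromosome in birds, which the array may not tell apart, so its value is uncertain. The 5 genes of the membrane part, among them ATP5I with the brightest probe set of the 109, had differences from -0.26 to -0.13. Of these 5, limma called 0, and 1, ATP5G3, had an unadjusted p under 0.05. ATP5J, a stalk subunit with the dimmest probe set of the complex, differed by 0.09 (interval -0.33 to 0.51), with a sign that turned in 2 alternatives.

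**Figure D3:**
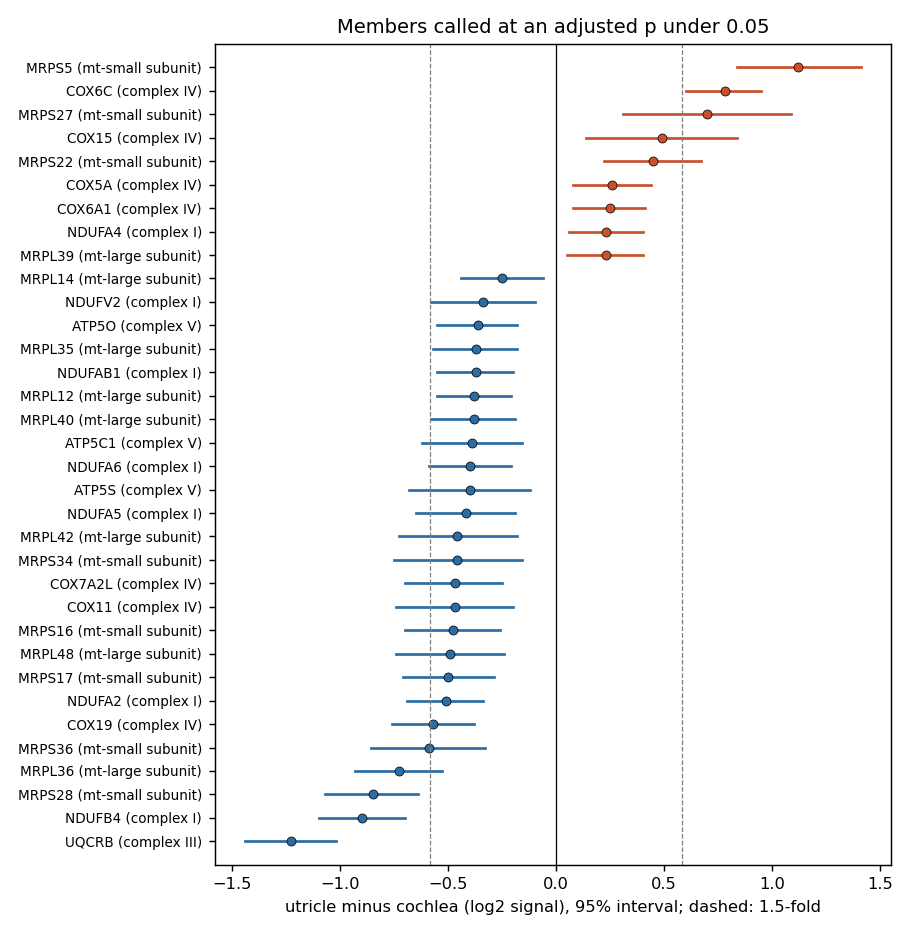
Difference of the 34 called genes, utricle minus cochlea in log2 signal on the horizontal axis, with the 95% confidence interval of the limma fit as a line; the complex or mitoribosomal (mt) subunit stands in brackets, red is higher in the utricle and blue in the cochlea. The dashed lines mark a 1.5-fold difference, which the intervals of UQCRB, NDUFB4, MRPS28, COX6C and MRPS5 exceed as a whole.

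The mitoribosome has a small subunit, which reads the messenger, and a large subunit, which joins amino acids and sits on the inner membrane. Some of its proteins have counterparts in bacterial ribosomes and others are specific to mitochondria. The large subunit had 27 tested genes, with a median difference of -0.21. Of these, 1 was called higher in utricle arrays, 7 in cochlea arrays and 19 in neither. The share called was 29.6%, against 53.2% of all genes. MRPL36, a counterpart of a small bacterial protein, had signals of 9.0, 8.72, 8.93 and 8.80 in the utricle and 9.64, 9.53, 9.55 and 9.63 in the cochlea. The tissues did not overlap, and MRPL36 was 1.66-fold higher in the cochlea (difference -0.73, interval -0.93 to -0.53, adjusted p 0.000159).

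MRPL48, a mitochondria-specific protein of the large subunit, had 9.52, 9.24, 9.35 and 9.20 in the utricle and 10.02, 9.77, 9.82 and 9.66 in the cochlea. It was 1.40-fold higher in the cochlea without overlap (adjusted p 0.00561). MRPL42, also specific to mitochondria, had 10.20, 10.54, 10.66 and 10.51 in the utricle and 10.79, 10.93, 10.91 and 11.12 in the cochlea. Utricle array 1 was the lowest and no array crossed between the tissues, with a 1.37-fold difference (adjusted p 0.0124). MRPL12, which is also known to bind the mitochondrial RNA polymerase, was 1.30-fold higher in the cochlea, at an adjusted p of 0.00302. MRPL40 (adjusted p 0.00578) and MRPL35 (adjusted p 0.00661) were each 1.30-fold higher there too.

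MRPL14, a counterpart of a bacterial protein at the interface of the subunits, was 1.19-fold higher in the cochlea, at an adjusted p of 0.0328, a call lost without utricle array 1 or 2 or cochlea array 2, 3 or 4 (adjusted p up to 0.0833). MRPL39 had signals of 8.46, 8.48, 8.54 and 8.49 in the utricle and 8.37, 8.19, 8.28 and 8.22 in the cochlea. Though the tissues did not overlap, the 1.17-fold difference in favour of the utricle (adjusted p 0.0356) was lost without any array other than cochlea array 1 (adjusted p up to 0.0826) under both other scalings (0.085 and 0.112) and with the trend and robust variance model (0.0531). MRPL37 differed by 0.35 (adjusted p 0.0574), with an adjusted p of 0.0157 with the replicate number as a block and 0.038 without cochlea array 1. Of the 22 fits, 6 called MRPL37. MRPL20 and MRPL18 had tissues that did not overlap and differences of -0.23 and -0.21 (adjusted p 0.0511 and 0.0536). MRPL1, with mean signals of 2.61 on utricle and 3.25 on cochlea arrays, and MRPL21, with 2.22 on both, had no array above 4 and were not tested. MRPL33, the dimmest gene tested, at a mean of 5.0, differed by 0.01 with an interval from -0.62 to 0.65, and its sign turned under other scalings.

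The small subunit had 20 tested genes, of which 3 were called higher in utricle arrays, 5 in cochlea arrays and 12 in neither, with a median difference of -0.06. By its name this count includes MRPS18A, later assigned to the large subunit, which was among those not called. The share called in the small subunit was under the 53.2% of all genes. MRPS5, a counterpart of a bacterial protein near the decoding site, had signals of 9.01, 8.54, 9.0 and 8.90 in the utricle and 7.60, 7.86, 7.71 and 7.80 in the cochlea. All utricle arrays lay above all cochlea arrays, and MRPS5 was 2.18-fold higher in the utricle (difference 1.12, interval 0.84 to 1.41, adjusted p 9.34e-05). MRPS27, a pentatricopeptide repeat protein specific to mitochondria, had 11.17, 10.58, 10.60 and 10.99 in the utricle and 10.45, 9.91, 10.01 and 10.16 in the cochlea. The arrays numbered 1 were the highest in both tissues, which did not overlap. The difference was 0.70 (interval 0.31 to 1.09), or 1.63-fold (adjusted p 0.00836). MRPS22, also specific to mitochondria, had 9.27, 9.48, 9.47 and 9.35 in the utricle and 8.86, 9.11, 8.79 and 9.01 in the cochlea. It was 1.36-fold higher in the utricle without overlap (adjusted p 0.00543).

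In the other direction, MRPS28 had signals of 10.54, 10.41, 10.73 and 10.47 in the utricle and 11.38, 11.29, 11.47 and 11.43 in the cochlea. The tissues did not overlap, and MRPS28 was 1.81-fold higher in the cochlea (difference -0.85, interval -1.07 to -0.64, adjusted p 9.13e-05). Like UQCRB, it was read by 1 tested probe set, of a kind that can also match other transcripts. A further probe set of MRPS28, at a mean of 3.59, did not pass the filter. MRPS36, later assigned to the 2-oxoglutarate dehydrogenase complex of the tricarboxylic acid cycle, had 10.10, 9.82, 9.70 and 9.99 in the utricle and 10.69, 10.49, 10.39 and 10.42 in the cochlea. It was 1.51-fold higher in the cochlea, with no array crossing (adjusted p 0.00254). MRPS17, which binds the ribosomal RNA as its bacterial counterpart does, had 11.22, 10.92, 11.19 and 11.06 in the utricle and 11.61, 11.54, 11.67 and 11.58 in the cochlea, a 1.42-fold difference without overlap (adjusted p 0.00183).

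MRPS16, another counterpart of a bacterial protein, was 1.39-fold higher in the cochlea, at an adjusted p of 0.00299. MRPS34, specific to mitochondria, was 1.37-fold higher there (adjusted p 0.0177), with an adjusted p of 0.0518 without cochlea array 3 and 0.0593 with no filter on low signal. MRPS33, the brightest probe set of the small subunit, differed by -0.01 (interval -0.21 to 0.19), with a sign that turned under some alternatives, and MRPS2, the dimmest, by 0.19 (-0.03 to 0.40). Of the 28 tested mitoribosomal proteins classed as having a bacterial counterpart, 1 was called higher in utricle arrays and 6 in cochlea arrays (25.0%). Of the 18 classed as specific to mitochondria, 3 were called higher in utricle arrays and 5 in cochlea arrays (44.4%, against 53.2% of all genes). The 18 include MRPS28, whose class is uncertain.

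Several probe sets of 25 genes were tested. The chosen probe set was called for 7 of these genes, and for 6 of the 7 another probe set was called in the same direction, the exception being COX6A1. No gene had calls in opposite directions (0 of 25). MRPS16 differed most among its own probe sets, at -0.48, -0.09, -1.45 and -0.82. Of genes not called, NDUFA9, NDUFA10 and MRPS18C had another probe set that was, with -0.53 for NDUFA9 (adjusted p 0.00117) against -0.21 on its chosen one. For MRPS18C a dim probe set differed by 0.94 (adjusted p 0.0317) and the chosen one by -0.07 (adjusted p 0.486). A probe set that can match other transcripts was read for 20 of the 109 genes and for 6 of the 34 called. These 6 were NDUFB4, NDUFA2, UQCRB, COX5A, COX6A1 and MRPS28.

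**Figure D4:**
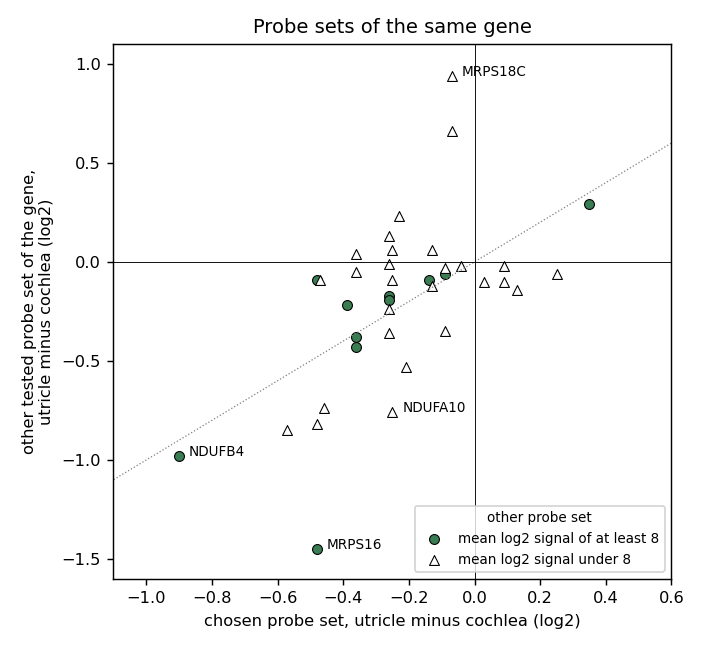
Difference of the chosen probe set of a gene (horizontal axis) against that of each further tested probe set of the same gene (vertical axis), both utricle minus cochlea in log2 signal; filled circles are further probe sets with a mean log2 signal of at least 8, and open triangles dimmer ones. The dotted line marks equal values, and MRPS16 at -1.45 and MRPS18C at 0.94 lie farthest from it among the labelled points.

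In the authors' deposited table of their own comparison (SAM), 7 of these genes were listed. COX6C, MRPS5 and MRPS27 stood there as higher in the utricle, with folds of 1.74, 2.23 and 1.6, and UQCRB, NDUFB4, MRPS28 and MRPL36 as higher in the cochlea, with 2.39, 1.89, 1.87 and 1.67 in the authors' deposited table. All 7 were called in the same direction here, and 27 genes called here were not in the authors' deposited table. The calls here had no fold limit, while the lowest fold of these genes in that table was 1.6. Of the 34 genes called here, 8 differed by at least 1.5-fold, so the lists are at unlike thresholds.

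Genes that work beside these were read from lists of the same organelle. Of 23 tested electron carriers and assembly factors whose names lie outside the rule, of 46 listed, 5 were called higher in utricle arrays and 8 in cochlea arrays. This was 56.5%, near the 53.2% of all genes, with a median difference of -0.21. CYCS, cytochrome c, which carries electrons from complex III to IV, was 1.69-fold higher in the cochlea (difference -0.76, adjusted p 9.05e-05). Genes of ubiquinone synthesis went in both directions. COQ3, a methyltransferase of that route, was 7.22-fold higher in the cochlea (8.31 against 11.16, adjusted p 1.08e-07), and COQ2, the prenyltransferase, was 3.25-fold higher in the utricle (9.15 against 7.45, adjusted p 2.02e-05). COQ10B, a ubiquinone-binding protein, was 4.11-fold higher in the utricle, at an adjusted p of 3.22e-06. ATPAF2, an assembly factor of the catalytic head of complex V, was 2.50-fold higher in the cochlea, at an adjusted p of 6.29e-05.

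Of 15 tested genes of the tricarboxylic acid cycle and pyruvate dehydrogenase, of 18 listed, 2 were called higher in utricle arrays and 5 in cochlea arrays. This was 46.7%, against 53.2% of all genes, with a median of 0.06. FH, fumarase, was 1.57-fold higher in the utricle, at an adjusted p of 0.000163. IDH3A, a subunit of the NAD-dependent isocitrate dehydrogenase, was 1.81-fold higher in the cochlea, at an adjusted p of 2.43e-05, and PDHX, a pyruvate dehydrogenase component, 1.57-fold (adjusted p 0.000144).

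Of 24 tested genes of mitochondrial translation and mitoribosome assembly, of 35 listed, 4 were called higher in utricle arrays and 3 in cochlea arrays. This was 29.2%, against 53.2% of all genes, with a median of -0.08. DHX30, an RNA helicase of the mitochondrial RNA granule, was 1.79-fold higher in the utricle, at an adjusted p of 0.00201, and MRRF, the ribosome recycling factor, 1.25-fold (adjusted p 0.00831). NSUN4, which methylates the small ribosomal RNA, was 1.87-fold higher in the cochlea, at an adjusted p of 6.74e-05, and MTG1, a GTPase of large subunit assembly, 1.65-fold (adjusted p 0.000748). Of 25 listed genes of mitochondrial DNA upkeep and the regulators of mitochondrial biogenesis, 11 were tested. Among the 11, 1 was called (9.09%, against 53.2% of all genes). This was GABPA, a subunit of a transcription factor known to bind promoters of respiratory chain genes, 1.31-fold higher in the utricle, at an adjusted p of 0.0113.

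**Figure D5:**
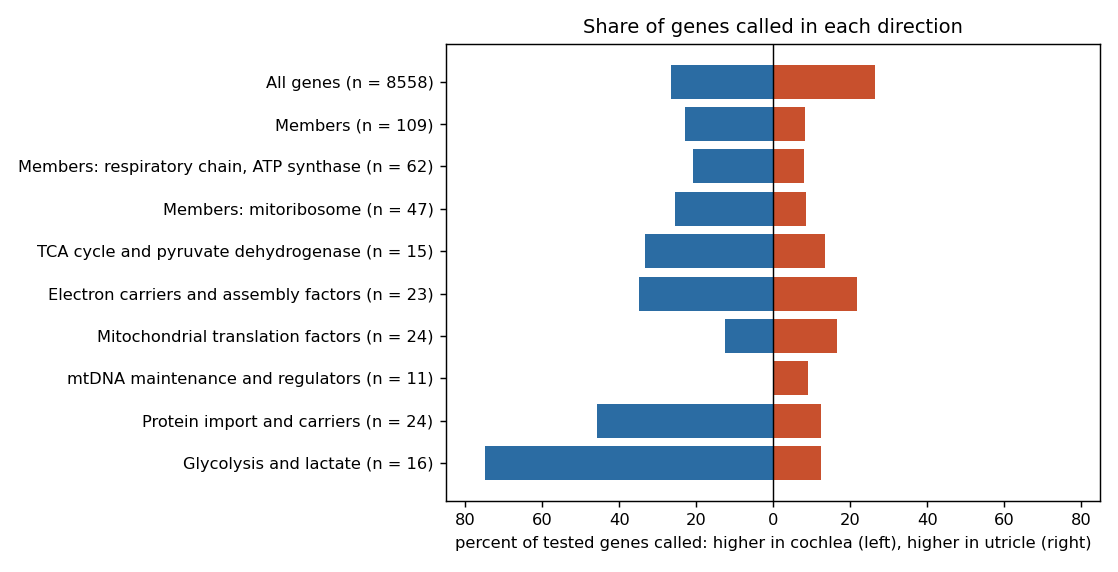
Percent of tested genes called at an adjusted p under 0.05, drawn to the left where higher in the cochlea and to the right where higher in the utricle, for all genes, for the genes described here and for lists of related genes, with the number tested in brackets. All genes show 26.7% and 26.5%, the 109 genes 22.9% and 8.26%.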

How the data were processed

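The authors deposited log2 GCRMA signals of chicken Affymetrix arrays, made by background correction on GC content, quantile normalization and median polish, per the read-me sheet and the submitters' processing notes, with no version stated. The deposited workbook holds the same values (largest difference within a tissue under the rounding of the file), counts of arrays with a MAS 5.0 call of present, and the authors' SAM fold as a ratio and q-value in percent. Every sample entered, 4 per tissue. A further 136 columns of values or calls per array were not used. Of 38535 probe sets, 96 controls were left out.

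A linear model without covariates (lmFit and eBayes of limma 3.58.1, under R 4.3.3, two-sided) was fitted over the 16223 probe sets with log2 above 4 on at least 4 arrays, and p-values were adjusted by Benjamini and Hochberg over all of them, with calls at an adjusted p under 0.05. A gene is read from its tested probe set with the highest mean. Differences are utricle minus cochlea with 95% intervals of that fit, and a fold is the brighter over the dimmer tissue. Signals of different probe sets do not rank transcripts by abundance. The number of arrays limits the precision. Tables and plots used Python 3.11.15, pandas 2.3.3 and matplotlib 3.10.9, and the fit was tested on simulated data. Names are those of the deposited sheet, and 106 of the 109 matched a symbol or synonym of RefSeq genes on GRCg7b, used for names only.

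The genes and all lists were chosen with earlier results of these data known. Named with values are all called genes, with array values for the 3 with the largest difference per direction in each complex or subunit, the brightest and dimmest of each, those beside the filter, and from each list up to 2 genes per direction, by adjusted p. The values of 1 listed gene are not reported here. The core subunits not called, CYCS, LDHA, GAPDH, single cell type markers, genes near the threshold and NDUFS3 were added after their values were seen.

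The tissues share replicate numbers. Deviations from the tissue means correlated at 0.552, 0.48, 0.404 and 0.144 for arrays numbered 1 to 4, each above 0.1, the level at which equal numbers were taken as pairs. The reported calls, intervals and adjusted p leave this pairing out, as planned. It enters only as an alternative, with the replicate number as a block. This pairing comes from the data and not the labels, and for cochlea array 4 the closest was utricle array 3 (0.304). Alternatives were other filters, scalings, variance models and probe set choices, the replicate number or the prefix of the array names as a block, the larger prefix alone and each array left out.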

Additional observations from a re-analysis of the deposited data

Results flagged for a closer look

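Among 61 genes, 122 sets of 4 arrays of a tissue were searched for an array far from the other 3 by Dixon's criterion, and 9 were found. Chance alone gives about 1 in 20, but the 61 genes include some added after their values were seen, NDUFS3 among them. The 9 can therefore not be set against that share. NDUFS3 had 7.48 on utricle array 4, against 9.76 to 9.98 on the others. COX15 had 7.49 on utricle array 2 (others 8.0 to 8.09), and NDUFV1 had 10.82 on the same array (others 11.07 to 11.08). NDUFA12L had 9.14 on cochlea array 1 (others 8.38 to 8.50), and NDUFS4 had 9.97 on the same array (others 9.38 to 9.42). MRPL12 had 9.83 on utricle array 1 (others 9.72 to 9.74). COX6A1 had 14.14 on cochlea array 2 (others 14.23 to 14.25), COX4NB had 10.20 on cochlea array 3 (others 9.99 to 10.02), and UQCRQ had 12.41 on cochlea array 4 (others 12.35 to 12.36).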

How the results depend on the processing

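Of the 34 called genes, 24 were called under all 22 fits, 4 of them higher in the utricle (COX6C, MRPS5, MRPS22 and MRPS27) and 20 in the cochlea. The counts in the report were 9 for the utricle and 25 for the cochlea. The utricle count was 5 with an equal median per array and 5 within the larger array name prefix, and ran from 5 to 8 with single arrays left out, while the cochlea count ran from 22 to 28. The smaller prefix holds 1 array per tissue and allows no test of its own. With at least 1.5-fold the counts were 3 and 5, and with at least 2-fold 1 and 1. With the replicate number as a block the counts were 10 and 33: all 34 calls were kept and 9 genes were added (those named in the report and NDUFB9, MRPL17, MRPL53, MRPS12 and MRPS35), and no other call changed. The share of all tested probe sets called also rose in that fit, from 51.5% to 58.2%.

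No called gene changed sign under any of these settings. The 61 genes named by the rule or after their values were seen were followed through each setting. Among those not called, the mean over probe sets turned the sign for ATP5J (-0.01), MRPL20 (0.001), UQCRC1 (-0.01), UQCRC2 (-0.04) and MRPS18C, which then was called higher in the utricle (0.51, adjusted p 0.019). Repeated quantile normalization turned MRPL33 (-0.09) and MRPS33 (0.0026), the equal median MRPL33 (-0.03) and UQCRC2 (-0.02), array weights MRPL33 (-0.08) and MRPS33 (0.01), and the larger prefix MRPL33 (-0.0012), MRPS33 (0.01) and UQCRC2 (-0.01). With single arrays left out, the differences spanned 0, from -0.08 to 0.18 for ATP5J, -0.18 to 0.19 for MRPL33, -0.05 to 0.04 for MRPS33, -0.03 to 0.07 for UQCRC2 and -0.10 to 0.03 for UQCRFS1. The causes were not tested.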

Other observations

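Protein import and carriers of the mitochondrial membranes were read from a further list, of which 24 of 37 genes were tested. Of these, 3 were called higher in utricle arrays and 11 in cochlea arrays. This was 58.3%, near the 53.2% of all genes, with a median difference of -0.17. VDAC1, the main pore of the outer membrane, was 2.26-fold higher in the cochlea (12.36 against 13.54, adjusted p 3.92e-06). The ADP/ATP carriers differed by gene. SLC25A5 was 1.73-fold higher in the cochlea, at an adjusted p of 3.25e-05, while SLC25A6 was 1.30-fold (adjusted p 0.00186) and SLC25A4 1.58-fold higher in the utricle (adjusted p 0.00948).

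Of 16 tested genes of glycolysis and lactate metabolism, of 21 listed, 12 were called higher in cochlea arrays and 2 in utricle arrays. This was 87.5%, against 53.2% of all genes, with a median difference of -0.50 against 0.00 over all genes. PGAM1, phosphoglycerate mutase, was 2.38-fold higher in the cochlea (12.75 against 14.00, adjusted p 0.000155). The muscle-type phosphofructokinase PFKM had a mean of 3.46 in the utricle, under the filter's level on all 4 arrays, and 5.18 in the cochlea, so it passed the filter only through the cochlea, and the count of 12 includes it. The liver-type PFKL was 1.79-fold higher in the utricle, at an adjusted p of 0.0219. Its tissues overlapped, with 9.02 on utricle array 1 and 9.13 on cochlea array 4. The probe sets of PFKM and PFKL share the stem of their names, and whether they read different genes was not tested. The lactate dehydrogenase genes went apart, with LDHA at -0.72 (adjusted p 0.0308) and LDHB at 0.24 (adjusted p 0.0197). GAPDH was among the genes higher in the cochlea (-0.33, adjusted p 0.0293), and the difference between its 3′ and 5′ control signals also moved with the tissue, as given above.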
